A study of Acipenser baerii with 14 samples.

Results

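The genes described here carry names linked to the motile cilium axoneme, the microtubule core that lets a cilium beat. They were studied in the lateral line organs of Siberian sturgeon (*Acipenser baerii*) larvae, and not all of them are axoneme parts. They were chosen by name: every assembled gene (contig group of the de novo assembly, called contig here) whose annotated symbol begins with DNAH, DNAI, DNAL, DNAAF, RSPH, CFAP, TEKT, TTLL, DRC or SPAG followed by a digit, or is DNALI1, CROCC or EFCAB6. The rule found 146 contigs of 86 symbols among 23448 in the table, and 127 of the 146 had enough counts to be tested. All are called axoneme contigs below. Only 107 carry names of dynein chains, radial spokes, the nexin-dynein regulatory complex, CFAP proteins or tektins. The rule uses names alone, but it was set with earlier results of these data known.

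A motile axoneme is a ring of doublet microtubules around a central pair. Outer and inner dynein arms on each doublet slide it along its neighbour, nexin links and radial spokes turn the sliding into bending, and tektins and other proteins line the doublet wall. The arms are built in the cytoplasm by assembly factors before they enter the cilium. Hair cells of neuromasts, the mechanosensory organs of the lateral line, and the electroreceptor cells of sturgeon ampullary organs carry a kinocilium with such an axoneme on their apical face, and many vertebrate epithelia, the olfactory epithelium among them, hold cells with many motile cilia.

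RNA of ampullary organs (AO), neuromasts (NM) and general epithelium (EP) was sequenced in 14 libraries of 7 groups, 2 libraries each. Untreated AO, untreated NM and untreated EP came from larvae 10 days after hatching, and AO and NM of larvae of that age were also taken 12 h and 24 h (hpt) after a bath of 1 h in 200 µM neomycin, an aminoglycoside that kills hair cells. Tissue was dissected after DASPEI staining, AO and NM from the ventral head and EP from the ventral trunk, so EP differs from the organs in body region as well as in type, and no treated EP was sampled. By the study's methods, the untreated, 12 hpt and 24 hpt larvae were each 1 set of 15. AO and NM of a set, and EP of the untreated set, came from the same larvae. Treatment state and set of larvae cannot be told apart. Tissue of each kind was pooled within a set, and RNA was extracted from 2 portions of each pool. The p-values therefore describe the spread between portions of a pool, not between larvae. Levels are given as CPM, counts scaled to library size after TMM correction for composition, and each difference as a log2 fold change with its standard error (SE) and the Benjamini-Hochberg adjusted p (FDR) of edgeR's quasi-likelihood test over all 21978 contigs tested. Calls required an FDR under 0.01 and a log2 fold change beyond 1 in either direction. In whole tissue, fewer cells of a type and less RNA per cell cannot be told apart.

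Libraries held 7121038 to 10067958 counts, and replicates correlated at 0.969 to 0.979 on the log scale. Hair cell markers, a list chosen with earlier results of these data known, were compared between each untreated organ and EP. Such a comparison bears on organ against EP only, and cannot check AO against NM or the time labels. The list had 37 tested contigs. Of these, 23 were called higher in untreated AO than in EP (62.2%, against 7.46% of all contigs). In untreated NM 16 were called higher than in EP (43.2%, against 4.06%), and none was called lower in either organ. Other tissues were also present. Summed levels of a muscle list ran from 297.5 CPM in an untreated NM library to 27960 in an EP library, those of a lens list from 13.87 in an AO 12 hpt library to 10120 in an NM 24 hpt library, and those of a liver list from 34.58 in EP to 590.9 in untreated NM. The axoneme contigs together made up only 0.0381% of counts in EP, 0.0525% in untreated NM, 0.0808% in untreated AO, 0.0996% in AO 12 hpt, 0.0811% in NM 12 hpt, 0.0786% in AO 24 hpt and 0.0885% in NM 24 hpt (means of 2 libraries). These shares are without TMM correction. With it, the sums were 451.2 CPM in EP, 583.2 in untreated NM, 854 in NM 12 hpt and 753 in NM 24 hpt. In AO they were 759 untreated, 947.2 at 12 hpt and 747.6 at 24 hpt. Single members were therefore counted shallowly: the mean level of the tested members ran from 0.33 to 38.7 CPM with a median of 2.64. Names come from matches to Swiss-Prot proteins, mostly of other species, and to proteins of the related sterlet, and 24 of the symbols are carried by several contigs, 84 contigs in all. Of the members, 42 share an assembly component with another member and 16 of these share it with a different symbol, so their reads could have been divided between them.

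The untreated AO stood highest among the untreated tissues. Of the 127 tested members, 69 were called higher in untreated AO than in EP and none lower, against 7.46% of all contigs called higher and 6.81% called lower. In share, 54.3% of the members were called. The median log2 fold change of the members was 1.77, and that of all contigs was 0.09. Untreated NM exceeded EP in fewer members: 17 were called higher (13.4%) and 3 lower (2.36%), against 4.06% and 9.19% of all contigs, with a median of 0.74 (0.62 when the contigs without any count in a group are set at the bound that 3 counts over the group allow). With only the groups compared in the fit, 47 members were called in AO and 8 in NM in all, and DESeq2 called 45 and 12. For these and later alternative fits the share of all contigs called is not given. A general loss of calls therefore cannot be told from one particular to the members. Without EP replicate 2, 11 members were called between untreated NM and EP.

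**Figure D1:**
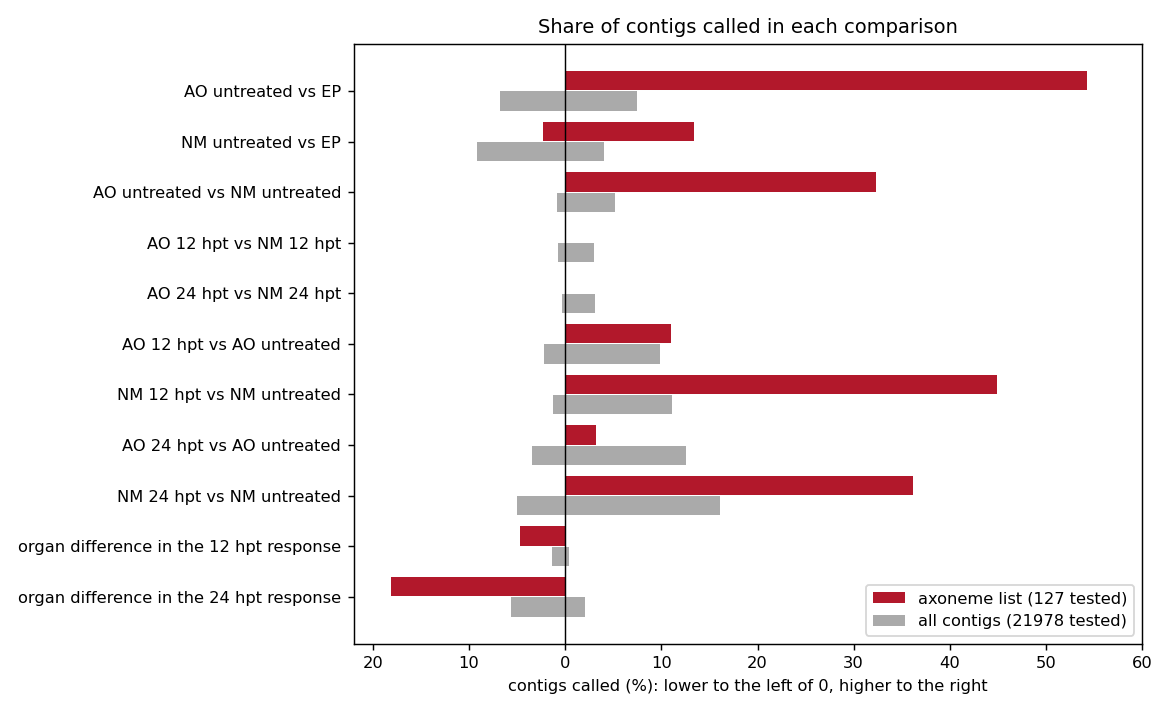
Percent of contigs called higher (right of 0) and lower (left of 0) in each comparison, for the 127 tested axoneme contigs (red) and all 21978 tested contigs (grey). The red bars reach 54.3% between untreated AO and EP and 44.9% between NM 12 hpt and untreated NM, while no axoneme contig was called between AO and NM at 12 hpt or 24 hpt.

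Levels in untreated AO also lay above those in untreated NM. A total of 41 members (32.3%) were called higher in AO and none in NM, against 5.2% and 0.828% of all contigs (6.02% in either direction), and the median log2 fold change was 1.20 against 0.13 over all contigs. For 100 members (78.7%) the lower AO library exceeded the higher NM library, compared with 41.5% of all tested contigs. The group means ran in the order AO, NM, EP for 81 members, but the share of all contigs in that order was not computed. Shares of all contigs called in the fits that follow are not given. The count of 41 called members depends on the fit. It was 0 of 127 when only the 4 libraries compared entered (81 members had an unadjusted p under 0.05 there), 18 by DESeq2 and 44 by edgeR's exact test on all libraries, and it was 19 and 20 without AO untreated replicate 1 and 2, 21 without NM untreated replicate 1 and 16 without NM untreated replicate 2.

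After neomycin the organs no longer differed in any called member. Between AO and NM at 12 hpt, 0 of 127 members were called by edgeR's quasi-likelihood test, 17 had an unadjusted p under 0.05, DESeq2 called 0 and the exact test 1, against 3.72% of all contigs called (2.95% higher in AO and 0.764% lower). The quasi-likelihood test called 1 without NM 12 hpt replicate 2 and without either EP library. At 24 hpt 0 members were called, 6 had an unadjusted p under 0.05, and DESeq2 and the exact test also called 0, against 3.49% of all contigs (3.11% higher in AO and 0.378% lower). The median log2 fold change between AO and NM was 0.26 at 12 hpt and 0.02 at 24 hpt. At 12 hpt the lower AO library still exceeded the higher NM library for 62 members (48.8%, compared with 27.1% of all contigs), and a missing call there does not show equal levels. At 24 hpt it did so for 29 members (22.8%, compared with 25.2% of all contigs), and for 26 (20.5%, compared with 25.8%) the order was reversed.

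The NM levels rose from the untreated state. At 12 hpt 57 members (44.9%) were called higher than in untreated NM and none lower, against 11.1% and 1.32% of all contigs, with a median log2 fold change of 1.46. At 24 hpt 46 members (36.2%) were called higher and none lower, against 16.1% and 5.01%, with a median of 1.06. In AO the change was smaller: 14 members (11%) were called higher at 12 hpt, close to the 9.84% of all contigs, with a median of 0.45, and 4 (3.15%) at 24 hpt, below the 12.6% of all contigs, with a median of -0.04. None was called lower in AO, against 2.21% and 3.47% of all contigs. The comparisons of AO with NM in untreated larvae and of both NM time points with untreated NM share the untreated NM libraries, so they are not independent of each other. Without NM untreated replicate 2, 31 members were called at 12 hpt and 28 at 24 hpt in NM. In AO at 12 hpt, 8 and 2 members were called without AO untreated replicate 1 and 2, and 8 and 4 without AO 12 hpt replicate 1 and 2. In AO at 24 hpt, 1 member was called without AO untreated replicate 1 or 2 and 2 without AO 24 hpt replicate 2. With only the groups compared in the fit, 16 and 28 members were called in NM and 5 and 1 in AO. DESeq2 called 34 and 30 in NM and 4 and 2 in AO.

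**Figure D2:**
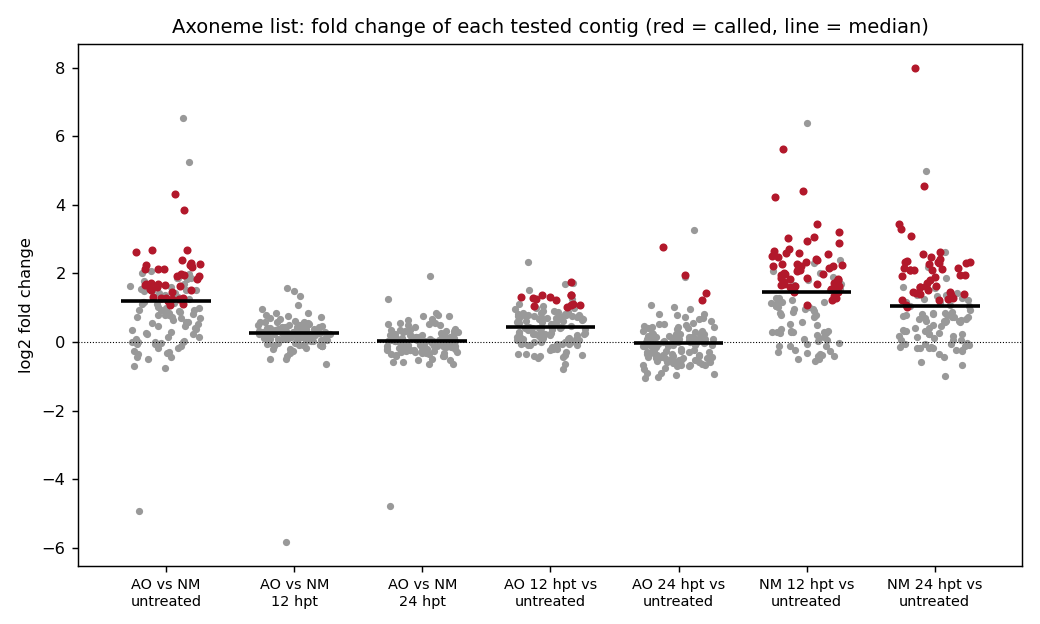
Log2 fold change (y axis) of each of the 127 tested axoneme contigs in 7 comparisons, red where called, with the median as a black line. The medians are 1.20 between untreated AO and NM, 0.26 and 0.02 between the organs at 12 hpt and 24 hpt, and 1.46 and 1.06 for NM at 12 hpt and 24 hpt against untreated NM.

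The response of the organs was compared directly as the AO change minus the NM change. At 12 hpt 6 members (4.72%) were called lower in this difference and none higher, against 1.39% and 0.405% of all contigs (1.79% in either direction). At 24 hpt 23 members (18.1%) were called lower and none higher, against 5.61% and 2.07% (7.68% in either direction). The median difference was -0.89 and -1.12 on the log2 scale. These calls also rest on the untreated NM libraries and are sensitive to each library: leaving out any library of the 4 groups gave 1 or 2 calls at 12 hpt and 8 to 14 at 24 hpt, with the lowest, 8, without NM untreated replicate 2, and leaving out AO 24 hpt replicate 2 gave 3 calls at 12 hpt. DESeq2 called 0 members at 12 hpt and 6 at 24 hpt.

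Seen over all 7 groups, AO 12 hpt held the highest mean for 81 members (63.8%), compared with 8.81% of all tested contigs. EP held the lowest mean for 88 members (69.3%, compared with 20.4%) and untreated NM for 28 (22%, compared with 23.8%). Of the 127 tested members, 87 were called in at least 1 of the 11 comparisons and 40 in none. The share of all contigs called in at least 1 comparison was not computed, so the 87 have no background beside them. The map of levels by role shows the same course in most roles, with a block of flat contigs at the foot of the CFAP, tubulin ligase and SPAG rows.

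**Figure D3:**
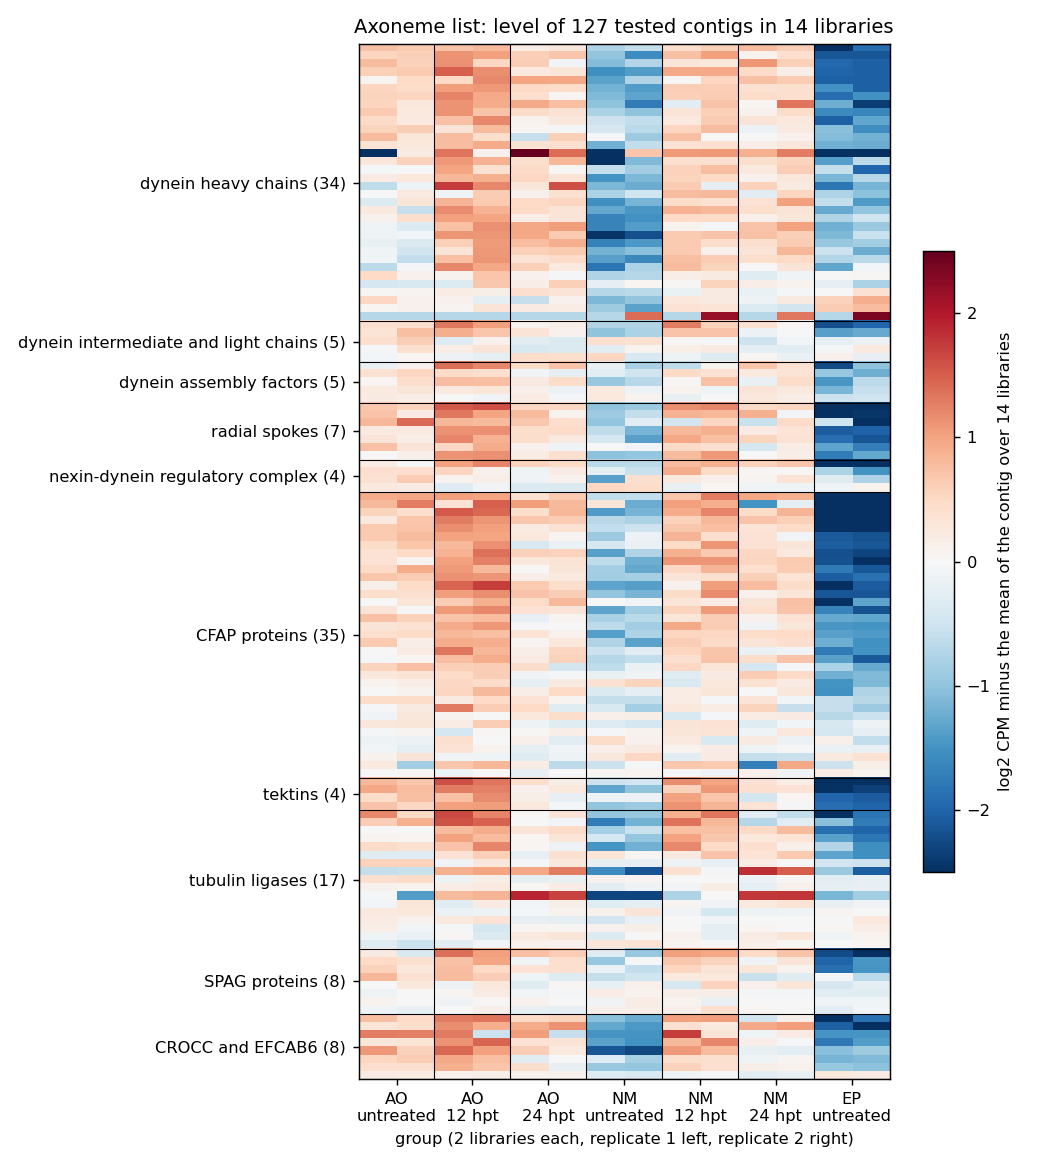
Level of the 127 tested axoneme contigs (rows, by role, number of contigs in parentheses) in the 14 libraries (columns), as log2 CPM minus the mean of the contig, from blue (low) to red (high). Red is most frequent in AO 12 hpt, where 81 contigs have their highest group mean (63.8%, compared with 8.81% of all tested contigs). Blue is most frequent in EP, where 88 have their lowest (69.3%, compared with 20.4%). Untreated NM holds the lowest mean of 28 (22%, close to the 23.8% of all tested contigs).

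Dynein heavy chains, the motor subunits of the arms, make up 52 of the contigs under 12 symbols, and only 34 were tested because 18 had too few counts. With TTLL2 these are the 19 untested members, at 11.2 to 74.4 counts each over all libraries. In summed level they stood at 64.67 and 66.23 CPM in the libraries of untreated AO, 104.6 and 108.6 in AO 12 hpt and 80.17 and 84.71 in AO 24 hpt. NM held 22.29 and 25.75 CPM in untreated NM, 86.62 and 87.40 in NM 12 hpt and 72.89 and 81.76 in NM 24 hpt, and EP was at 29.19 and 33.34. Untreated NM was the only group in which the summed heavy chains lay below EP. Of the 34 tested contigs, 11 were called higher in untreated AO than in EP (32.4%, against 7.46% of all contigs). Untreated AO exceeded NM in 11 called contigs (32.4%, against 5.2%). In NM 16 were called higher at 12 hpt (47.1%, against 11.1%) and 18 at 24 hpt (52.9%, against 16.1%). In AO 5 were called higher at 12 hpt (14.7%, against 9.84%) and 2 at 24 hpt (5.88%, against 12.6%). In untreated NM against EP, 3 heavy chain contigs were called lower (8.82%, close to the 9.19% of all contigs) and none higher (against 4.06%).

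DNAH7, a heavy chain of the inner arms, rose in NM at both times. Contig DN114041_c0_g1 was at 0.421 and 0.548 CPM in untreated NM, 5.37 and 5.66 in NM 12 hpt, 5.69 and 5.17 in NM 24 hpt, 3.05 and 3.19 in untreated AO, 7.49 and 7.47 in AO 12 hpt, 6.73 and 5.42 in AO 24 hpt and 1.42 and 2.21 in EP. Untreated NM lay below every other library and both treated NM groups lay above untreated AO. The rise in NM was 3.45 (SE 0.269, FDR 8e-06) at 12 hpt and 3.43 (SE 0.267, FDR 2.7e-06) at 24 hpt on the log2 scale, and the rise in AO at 12 hpt was 1.26 (SE 0.181, FDR 0.00042). In untreated larvae the contig was higher in AO than in NM by 2.63 (SE 0.284, FDR 0.0002) and lower in NM than in EP, at -1.86 (SE 0.323, FDR 0.0021). The AO change minus the NM change was -2.20 (SE 0.344, FDR 0.005) at 12 hpt and -2.47 (SE 0.341, FDR 0.00082) at 24 hpt.

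Other DNAH7 contigs were measured less firmly. DN96073_c7_g3 stood at 0.421 and 1.75 CPM in untreated NM, 5.37 and 5.44 in NM 12 hpt, 5.57 and 6.09 in NM 24 hpt, 4.95 and 6.09 in untreated AO, 8.84 and 7.58 in AO 12 hpt, 5.43 and 7.32 in AO 24 hpt and 1.42 and 2.47 in EP. Its replicates in untreated NM lay far apart, but both were below every organ library of the other groups, and it was called higher in AO than in NM (2.24, SE 0.404, FDR 0.0031) and in NM at 12 hpt (2.21, SE 0.415, FDR 0.0025) and 24 hpt (2.33, SE 0.406, FDR 0.00082). DN119689_c3_g1 was called higher in NM 12 hpt (2.6, SE 0.314, FDR 0.00016), NM 24 hpt (2.36, SE 0.316, FDR 0.00014) and AO 12 hpt (1.38, SE 0.243, FDR 0.0015). It shares its assembly component with contigs named DNAH3, so reads could have been divided between the names.

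DNAH3, also a heavy chain of the inner arms, was among the few members called higher in AO at 24 hpt. Contig DN105907_c1_g1 was at 1.62 and 1.40 CPM in untreated AO, 2.95 and 4.16 in AO 12 hpt and 3.37 and 3.71 in AO 24 hpt. The NM levels were 0.421 and 0.548 CPM in untreated NM, 3.05 and 2.6 in NM 12 hpt and 2.54 and 3.04 in NM 24 hpt, and EP was at 0.850 and 0.912. All treated libraries lay above all untreated ones. Its change in AO was 1.24 (SE 0.235, FDR 0.0023) at 12 hpt and 1.22 (SE 0.234, FDR 0.0019) at 24 hpt, and in NM 2.48 (SE 0.309, FDR 0.00019) and 2.48 (SE 0.305, FDR 7.4e-05). DNAH3 DN119689_c3_g2 rose in AO by 1.44 (SE 0.282, FDR 0.0021) and in NM by 3.29 (SE 0.394, FDR 6.1e-05) at 24 hpt.

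The heavy chains of the outer arms did not move as 1 block. DNAH5 DN100118_c0_g2 was at 2.83 and 3.13 CPM in EP, 1.81 and 1.90 in untreated AO and 0.841 and 0.548 in untreated NM, so EP was highest for this contig. DNAH11 DN113515_c0_g1 was at 3.68 and 4.69 CPM in EP, 3.52 and 2.6 in untreated AO and 0.981 and 1.10 in untreated NM. Both were called lower in NM than in EP, DNAH5 at -2.11 (SE 0.261, FDR 0.00014) and DNAH11 at -1.99 (SE 0.328, FDR 0.00093), and both rose in NM at 12 hpt, by 1.73 (SE 0.268, FDR 0.0011) and 1.44 (SE 0.341, FDR 0.0088). Other tested contigs of these names differed. As log2 CPM minus the contig mean, DNAH5 DN118386_c0_g2 was at 0.535 and 0.461 in untreated AO and -1.521 and -2.033 in EP. DNAH11 DN107636_c1_g1 was at -0.007 and 0.223 in untreated AO and -0.776 and -1.032 in EP. DNAH5 DN110071_c0_g2 also lay higher in untreated AO than in EP, while DNAH5 DN100118_c0_g1 and DNAH11 DN87020_c5_g1 overlapped between them. DNAH8 DN118386_c0_g1, named for an outer arm chain known from mammalian sperm, was at 2.47 and 3.19 CPM in untreated AO, 4.91 and 4.8 in AO 12 hpt and 2.61 and 2.91 in AO 24 hpt. In NM, the libraries stood at 0.561 and 0.658 CPM in untreated NM, 3.34 and 3.28 in NM 12 hpt and 2.54 and 2.84 in NM 24 hpt, and EP was at 1.28 and 1.56. It was called higher in AO than in NM in untreated larvae (2.18, SE 0.251, FDR 0.00029) and in NM at 12 hpt (2.40, SE 0.253, FDR 6.2e-05) and 24 hpt (2.11, SE 0.256, FDR 6.6e-05). Another contig of this name, DNAH8 DN133391_c0_g1, had no count in any AO library and counts in replicate 2 alone of untreated NM, NM 12 hpt, NM 24 hpt and EP.

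The smaller dynein chains divided by gene. The contigs with the most counts, DNALI1 and DNAL4, were flat: DNALI1, a light intermediate chain of the inner arms, ran from 10.2 to 18.0 CPM and DNAL4, a light chain, from 9.97 to 18.9 over the 14 libraries, and neither was called anywhere. DNAI1 and DNAI2, the intermediate chains of the outer arms, are outside the naming rule of the text and were chosen after their values were seen. DNAI2 was at 5.995 and 8.08 CPM in untreated AO, 9.08 and 7.79 in AO 12 hpt and 5.97 and 5.12 in AO 24 hpt. NM stood at 2.24 and 2.63 CPM in untreated NM, 7.84 and 7.81 in NM 12 hpt and 4.24 and 4.67 in NM 24 hpt, and EP was at 1.70 and 1.82. Both DNAI1 and DNAI2 were called higher in untreated AO than in EP and than in NM and in NM at 12 hpt, DNAI1 by 2.94 (SE 0.36, FDR 0.00012), 1.28 (SE 0.283, FDR 0.0084) and 1.83 (SE 0.279, FDR 0.00069), DNAI2 by 1.99 (SE 0.209, FDR 4.2e-05), 1.51 (SE 0.193, FDR 0.0005) and 1.67 (SE 0.195, FDR 0.00013).

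Of the 5 assembly factors, DNAAF1 to DNAAF5 with 1 contig each, 2 were called higher in untreated AO than in EP (40%, against 7.46% of all contigs). None was called between untreated AO and NM (against 6.02%) or in NM at 12 hpt and 24 hpt (against 12.4% and 21.2%). DNAAF5, which aids the building of dynein arms in the cytoplasm, lay between 7.11 and 9.93 CPM in all organ libraries and at 5.53 and 5.73 in EP, a difference of 0.71 in untreated AO (SE 0.132, FDR 0.0018) and 0.71 in untreated NM (SE 0.135, FDR 0.0023) that stayed under the fold threshold. DNAAF3 was at 2.47 and 3.09 CPM in untreated AO and 7.73 and 6.83 in AO 12 hpt, a rise of 1.38 (SE 0.323, FDR 0.0073). In NM it was at 2.52 and 1.53 untreated and 1.74 and 3.06 at 12 hpt, which overlap, with a change of 0.30 (SE 0.4, FDR 0.62), and the difference between the organ responses of 1.08 (SE 0.518, FDR 0.23) did not pass the test.

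Radial spoke proteins differed from EP and rose in NM in most contigs. Of 7, 6 were called higher in untreated AO than in EP (85.7%, against 7.46% of all contigs) and 3 in untreated NM than in EP (42.9%, against 4.06%). Untreated AO exceeded NM in 3 (42.9%, against 5.2%). In NM 5 were called higher at 12 hpt (71.4%, against 11.1%) and 4 at 24 hpt (57.1%, against 16.1%). In AO 1 was called higher at 12 hpt (14.3%, against 9.84%). Their summed level was 48.00 and 48.53 CPM in untreated AO, 86.01 and 87.98 in AO 12 hpt and 48.56 and 50.06 in AO 24 hpt. NM held 19.40 and 20.75 CPM in untreated NM, 68.53 and 74.74 in NM 12 hpt and 45.16 and 46.05 in NM 24 hpt, and EP was at 8.64 and 8.73. No groups overlapped, although untreated AO, AO 24 hpt and NM 24 hpt lay close together.

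RSPH1, a protein of the spoke head, had the smallest FDR of all members in every comparison except AO against NM at 12 hpt and at 24 hpt and AO 24 hpt against untreated AO. It was at 10.9 and 10.1 CPM in untreated AO, 20 and 21.1 in AO 12 hpt and 9.77 and 9.73 in AO 24 hpt. The NM levels were 3.23 and 3.51 CPM in untreated NM, 15.4 and 16.0 in NM 12 hpt and 9.57 and 9.94 in NM 24 hpt, and EP was at 0.425 and 0.391. AO and NM lay close at 24 hpt and far apart in the untreated state. It exceeded EP by 4.64 in untreated AO (SE 0.166, FDR 2e-08) and by 3.01 in untreated NM (SE 0.205, FDR 1.9e-06), and AO exceeded NM by 1.63 (SE 0.108, FDR 9.1e-06) untreated, 0.39 (SE 0.0845, FDR 0.014) at 12 hpt and -0.00 (SE 0.0921, FDR 1) at 24 hpt. NM rose by 2.21 (SE 0.106, FDR 2.9e-07) at 12 hpt and 1.53 (SE 0.11, FDR 1.5e-06) at 24 hpt. The AO change at 12 hpt was 0.97 (SE 0.0855, FDR 1.8e-05), just under the fold threshold, and -0.11 (SE 0.0903, FDR 0.56) at 24 hpt.

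RSPH4A, also a spoke head protein, was at 13.7 and 15.2 CPM in untreated AO, 30.4 and 30.8 in AO 12 hpt and 15.9 and 18.3 in AO 24 hpt. In NM, the libraries stood at 6.73 and 7.01 CPM in untreated NM, 24.3 and 29.8 in NM 12 hpt and 13.7 and 15.5 in NM 24 hpt, and EP was at 3.97 and 5.60. The libraries of both organs at 12 hpt lay above all others. It was called higher in AO 12 hpt (1.09, SE 0.137, FDR 0.00019), NM 12 hpt (1.98, SE 0.156, FDR 8.8e-06) and NM 24 hpt (1.09, SE 0.162, FDR 0.00028). RSPH3, a protein of the spoke stalk, was at 5.81 and 5.89 CPM in untreated AO, 10.9 and 11.2 in AO 12 hpt and 6.73 and 6.92 in AO 24 hpt. NM stood at 3.08 and 2.08 CPM in untreated NM, 8.86 and 9.29 in NM 12 hpt and 5.69 and 6.29 in NM 24 hpt, and EP was at 0.992 and 1.04. It was called higher in NM at 12 hpt (1.83, SE 0.163, FDR 2.1e-05) and 24 hpt (1.24, SE 0.169, FDR 0.00015) and in untreated NM than in EP (1.31, SE 0.235, FDR 0.0067).

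The nexin-dynein regulatory complex, which links neighbouring doublets, is represented by DRC1, DRC3 and DRC7. DRC1 was at 3.997 and 3.49 CPM in untreated AO, 7.24 and 8.43 in AO 12 hpt and 5.21 and 5.02 in AO 24 hpt. NM held 2.10 and 2.08 CPM in untreated NM, 6.10 and 6.68 in NM 12 hpt and 5.33 and 5.78 in NM 24 hpt, and EP was at 0.425 and 0.391. It rose in AO 12 hpt (1.06, SE 0.14, FDR 0.00024), NM 12 hpt (1.61, SE 0.162, FDR 4.8e-05) and NM 24 hpt (1.41, SE 0.162, FDR 4.7e-05) and exceeded EP in both untreated organs, by 3.16 in AO (SE 0.236, FDR 3.8e-06) and 2.32 in NM (SE 0.265, FDR 0.00015). DRC3 gave no call, and its untreated NM replicates lay at 4.63 and 16.1 CPM. DRC7 DN102336_c1_g1 went the other way at sizes under the threshold: 43.4 and 42.3 CPM in untreated AO and 52.3 and 50.4 in untreated NM stood above all treated libraries, which held 28.6 to 37.9, with changes of -0.57 in AO 24 hpt (SE 0.106, FDR 0.0015) and -0.60 in NM 24 hpt (SE 0.106, FDR 0.00092). The other DRC7 contig, DN89622_c8_g1, did not share this. As log2 CPM minus the contig mean, it was at 0.411 and 0.424 in untreated AO and -0.249 and -0.553 in untreated NM. It was at 0.928 and 0.485 in NM 12 hpt and -0.785 and -1.488 in EP.

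Tektins, which form filaments in the doublet wall, were all called higher in untreated AO than in EP, 4 of 4 (against 7.46% of all contigs). In untreated NM 2 of 4 were called higher than in EP (50%, against 4.06%). Untreated AO exceeded NM in 3 (75%, against 5.2%). In NM 3 were called higher at 12 hpt (75%, against 11.1%) and 2 at 24 hpt (50%, against 16.1%). In AO none was called after treatment (against 12% at 12 hpt and 16% at 24 hpt). The median AO change was 0.42 at 12 hpt and -0.59 at 24 hpt. TEKT1 was at 8.47 and 7.29 CPM in untreated AO, 10.6 and 10.4 in AO 12 hpt and 4.56 and 5.12 in AO 24 hpt. The NM levels were 1.54 and 1.97 CPM in untreated NM, 6.39 and 9.17 in NM 12 hpt and 5.69 and 5.48 in NM 24 hpt, and EP was at 0.567 and 0.651. AO 24 hpt lay below untreated AO without passing the fold threshold (-0.70, SE 0.177, FDR 0.009), and the change in NM was 2.13 (SE 0.216, FDR 4.9e-05) at 12 hpt and 1.64 (SE 0.222, FDR 0.00014) at 24 hpt. The AO change minus the NM change was -1.73 (SE 0.275, FDR 0.0055) and -2.34 (SE 0.284, FDR 0.00038).

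TEKT2 was at 8.85 and 7.98 CPM in untreated AO, 15.6 and 12.8 in AO 12 hpt and 6.73 and 5.52 in AO 24 hpt. In NM, the libraries stood at 3.37 and 3.51 CPM in untreated NM, 11.3 and 9.97 in NM 12 hpt and 6.42 and 5.58 in NM 24 hpt, and EP was at 0.283 and 0.261. It showed the highest fold over EP among the tektins, 4.88 in AO (SE 0.276, FDR 5.1e-07) and 3.60 in NM (SE 0.326, FDR 1.5e-05). TEKT4 was at 5.52 and 4.79 CPM in untreated AO, 6.995 and 7.04 in AO 12 hpt and 4.02 and 3.21 in AO 24 hpt. NM stood at 1.54 and 1.64 CPM in untreated NM, 7.41 and 6.12 in NM 12 hpt and 4.24 and 3.25 in NM 24 hpt, and EP was at 0.709 and 0.651. The organs overlapped at 12 hpt and at 24 hpt and were separate only in untreated larvae, where AO was higher by 1.68 (SE 0.213, FDR 0.00048).

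**Figure D4:**
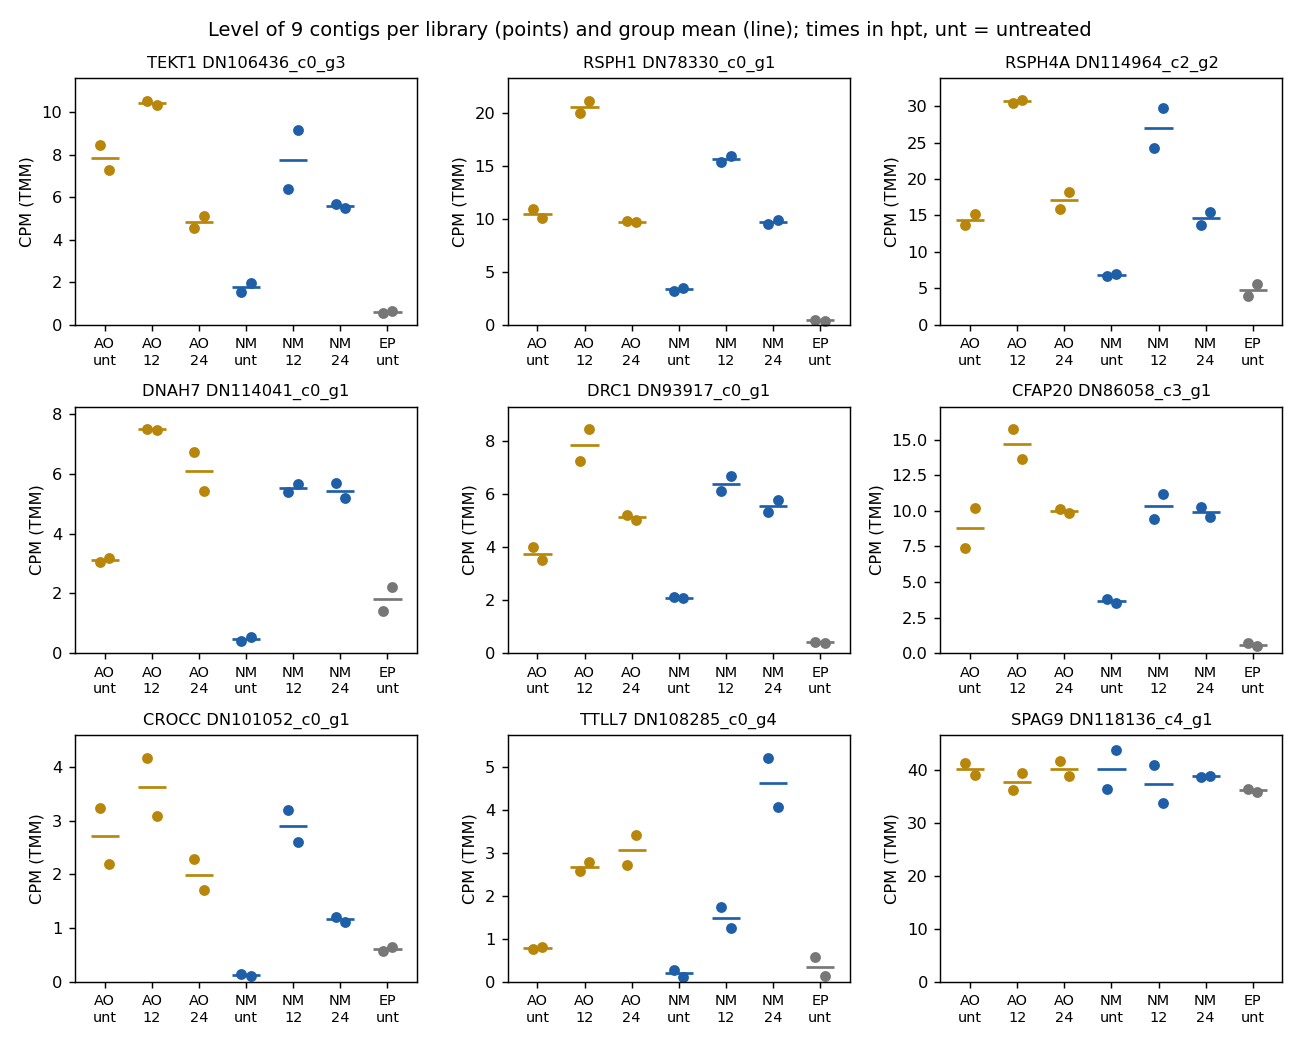
Level in CPM (y axis, from 0) of 9 contigs in each library (points) with the group mean (line), AO in ochre, NM in blue and EP in grey. In RSPH1, TEKT1, CFAP20 and DNAH7 untreated NM lies below untreated AO, NM 12 hpt lies nearer to AO 12 hpt but still below it, and at 24 hpt NM is close to AO (TEKT1 slightly above), while SPAG9 stays between 33.7 and 43.8 CPM in all 14 libraries.

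CFAP proteins, named for cilia and flagella and spread over the central pair, the spokes, the doublet lumen and the links, form the largest group of symbols, 31 with 35 contigs. Of the 35, 26 were called higher in untreated AO than in EP (74.3%, against 7.46% of all contigs) and 8 in untreated NM than in EP (22.9%, against 4.06%). Untreated AO exceeded NM in 13 (37.1%, against 5.2%). In NM 16 were called higher at 12 hpt (45.7%, against 11.1%) and 12 at 24 hpt (34.3%, against 16.1%). In AO 3 were called higher at 12 hpt (8.57%, against 9.84%) and none at 24 hpt (against 12.6%). CFAP206, known in Tetrahymena as a protein at the base of a radial spoke, was at 4.19 and 3.99 CPM in untreated AO, 5.77 and 5.66 in AO 12 hpt and 2.82 and 3.01 in AO 24 hpt. NM held 1.26 and 1.32 CPM in untreated NM, 3.19 and 3.40 in NM 12 hpt and 3.88 and 3.25 in NM 24 hpt, and EP was at 0.425 and 0.521. It differed between the untreated organs by 1.65 (SE 0.184, FDR 0.00024) and rose in NM by 1.34 (SE 0.194, FDR 0.0012) at 12 hpt and 1.45 (SE 0.189, FDR 0.00011) at 24 hpt.

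CFAP20, a protein of the inner junction that closes the doublet, shows how contigs of 1 name can differ. DN86058_c3_g1 was at 7.42 and 10.2 CPM in untreated AO, 15.7 and 13.7 in AO 12 hpt and 10.1 and 9.83 in AO 24 hpt. The NM levels were 3.79 and 3.51 CPM in untreated NM, 9.44 and 11.2 in NM 12 hpt and 10.3 and 9.54 in NM 24 hpt, and EP was at 0.709 and 0.521, and was called higher than EP in AO (3.81, SE 0.264, FDR 2.2e-06) and in NM (2.54, SE 0.31, FDR 0.00012). DN86058_c2_g2, of the same assembly component, lay between 6.90 and 14.9 CPM in all libraries with EP inside that range, and was not called in any comparison. Over the whole list 12 symbols had contigs called higher in AO than in EP next to contigs that were not called.

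The CFAP contigs with the most counts were flat. CFAP298, which is needed for dynein arm assembly in zebrafish and human cilia, lay between 22.5 and 38.8 CPM and CFAP36, a binding partner of the small GTPase ARL3, between 19.9 and 29.9, and neither was called in any comparison. The log2 difference between untreated AO and EP was 0.33 for CFAP298 and 0.03 for CFAP36.

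The tubulin ligases (TTLL) add glutamate or glycine to tubulin tails and act in cilia and in other cells, so this role is the least bound to the axoneme. Of 17 tested contigs, 7 were called higher in untreated AO than in EP (41.2%, against 7.46% of all contigs). Untreated NM exceeded EP in 2 (11.8%, against 4.06%) and untreated AO exceeded NM in 3 (17.6%, against 5.2%). In NM 7 were called higher at 12 hpt (41.2%, against 11.1%) and 5 at 24 hpt (29.4%, against 16.1%). In AO 1 was called higher at 12 hpt (5.88%, against 9.84%) and 2 at 24 hpt (11.8%, against 12.6%). TTLL3, a glycine ligase, was at 9.04 and 9.08 CPM in untreated AO, 15.7 and 17.3 in AO 12 hpt and 11.4 and 12.6 in AO 24 hpt. In NM, the libraries stood at 4.91 and 6.03 CPM in untreated NM, 15.4 and 15.1 in NM 12 hpt and 12.8 and 15.8 in NM 24 hpt, and EP was at 2.27 and 2.08 (contig DN92555_c0_g1). All treated libraries lay above the untreated ones, with a change in NM of 1.46 (SE 0.141, FDR 3.3e-05) at 12 hpt and 1.38 (SE 0.14, FDR 1.8e-05) at 24 hpt.

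TTLL7, a glutamate ligase best known from mouse neurons, followed another course, with its highest levels at 24 hpt. DN108285_c0_g4 was at 0.761 and 0.798 CPM in untreated AO, 2.58 and 2.78 in AO 12 hpt and 2.72 and 3.41 in AO 24 hpt. NM stood at 0.280 and 0.110 CPM in untreated NM, 1.74 and 1.25 in NM 12 hpt and 5.21 and 4.06 in NM 24 hpt, and EP was at 0.567 and 0.130. The change was 1.76 (SE 0.369, FDR 0.004) and 1.96 (SE 0.36, FDR 0.0015) in AO and 2.90 (SE 0.564, FDR 0.003) and 4.54 (SE 0.472, FDR 2.2e-05) in NM at 12 hpt and 24 hpt. DN108285_c0_g1 had no count in untreated NM. Against the floor of 3 counts over the group it was at least 3.79-fold higher in NM 12 hpt and at least 19.7-fold higher in NM 24 hpt, and it rose in AO 24 hpt from 0.856 and 0.1996 CPM to 4.02 and 3.41 (2.76, SE 0.445, FDR 0.00091). The summed levels of a neuron marker list moved with it: 338.1 to 369.9 CPM in untreated AO, 818.8 to 837.6 in AO 12 hpt, 1203 to 1267 in AO 24 hpt, 129.5 to 152.4 in untreated NM, 431.3 to 438.6 in NM 12 hpt, 1487 to 1534 in NM 24 hpt and 190.8 to 204.5 in EP. Of its 25 tested contigs, 20 were called higher in AO 24 hpt (80%, against 12.6% of all contigs) and 22 in NM 24 hpt (88%, against 16.1%). The part of neural tissue in the TTLL7 values was not tested. The TTLL12 contigs, named for a family member without known ligase activity, were not called: DN118008_c3_g1 lay between 14.2 and 26.3 CPM and DN102220_c0_g1 between 8.11 and 12.5.

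SPAG proteins share a name from sperm antigens and not a function. SPAG9, a scaffold of JNK signalling and vesicle transport, and SPAG7, which is not known as an axoneme protein, were flat, at 33.7 to 43.8 and 24.9 to 35.2 CPM over all libraries, and had no call. SPAG6, a protein of the central pair that was chosen here after its values were seen, was at 16.6 and 10.8 CPM in untreated AO, 37.3 and 28.9 in AO 12 hpt and 23.9 and 22.0 in AO 24 hpt. NM held 11.4 and 7.23 CPM in untreated NM, 29.0 and 27.97 in NM 12 hpt and 20.1 and 23.4 in NM 24 hpt, and EP was at 2.83 and 1.17. The untreated organs overlapped, at a difference of 0.58 (SE 0.285, FDR 0.16), and SPAG6 was the only member of this role called in AO 12 hpt (1.27, SE 0.252, FDR 0.003), NM 12 hpt (1.64, SE 0.275, FDR 0.0013) and NM 24 hpt (1.25, SE 0.277, FDR 0.0037).

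CROCC (rootletin) forms the rootlet that anchors a cilium at its base and EFCAB6 is an EF-hand protein of the doublet. CROCC DN101052_c0_g1 was at 0.140 and 0.110 CPM in untreated NM, 3.19 and 2.6 in NM 12 hpt, 1.21 and 1.12 in NM 24 hpt, 3.24 and 2.20 in untreated AO, 4.17 and 3.10 in AO 12 hpt, 2.28 and 1.71 in AO 24 hpt and 0.567 and 0.651 in EP. It gave the largest called difference between the untreated organs, 4.32 (SE 0.453, FDR 0.00017), and rose in NM by 4.40 (SE 0.458, FDR 5.9e-05) at 12 hpt and 3.10 (SE 0.525, FDR 0.00068) at 24 hpt. CROCC DN98589_c1_g1 had no count in untreated NM or EP and was at 1.33 and 1.30 CPM in untreated AO, at least 7.13-fold above NM and 6.46-fold above EP against the floor of 3 counts over the group. The CROCC contig with the most counts, DN119947_c6_g1, did not share this: it was at 27.1 and 26.1 CPM in EP, 25.8 and 25.6 in untreated AO and 18.0 and 17.1 in untreated NM, and was not called in any comparison.

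EFCAB6 DN114293_c0_g1 was at 3.81 and 4.19 CPM in untreated AO, 7.12 and 5.87 in AO 12 hpt and 5.97 and 6.92 in AO 24 hpt. The NM levels were 1.12 and 0.986 CPM in untreated NM, 4.07 and 3.62 in NM 12 hpt and 6.05 and 6.49 in NM 24 hpt, and EP was at 0.567 and 0.261. In NM its libraries at 24 hpt lay above those at 12 hpt, with a change from untreated NM of 2.57 (SE 0.229, FDR 7.3e-06), against 1.86 (SE 0.247, FDR 0.0003) at 12 hpt. The difference between these changes was not tested.

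Other genes of the axoneme, taken from a list of names outside the rule (86 contigs of 72 symbols, 84 tested), were called higher in untreated AO and in NM 12 hpt at shares well above those of all contigs. Of the 84, 46 were called higher (54.8%, against 7.46% of all contigs) and 1 lower (1.19%, against 6.81%) in untreated AO than in EP. Untreated NM against EP had 19 higher (22.6%, against 4.06%) and 3 lower (3.57%, against 9.19%). Untreated AO against NM had 21 higher (25%, against 5.2%) and 1 lower (1.19%, against 0.828%). In NM 12 hpt 33 were called higher (39.3%, against 11.1%) and in NM 24 hpt 18 (21.4%, against 16.1%). The AO changes lay below the share of all contigs, with 6 called higher at 12 hpt (7.14%, against 9.84%) and 2 at 24 hpt (2.38%, against 12.6%). Between the organs 0 were called at 12 hpt (against 3.72%), and 1 was called higher in AO at 24 hpt (1.19%, against 3.11%). This was TPPP3 (1.51, SE 0.12, FDR 1.8e-05), a tubulin polymerisation protein named here after its values were seen. Their medians were 0.88 between untreated AO and NM, 1.14 in NM 12 hpt and 0.78 in NM 24 hpt. SPEF2, a central pair protein, was higher in untreated AO than in untreated NM by 1.88 (SE 0.208, FDR 0.00023).

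A list of candidate regulators of cilium formation (FOXJ1, RFX family, MCIDAS, GMNC and others) had 15 tested contigs. Against EP, 3 were called higher in untreated AO (20%, against 7.46% of all contigs) and 2 in untreated NM (13.3%, against 4.06%). None was called between the untreated organs, against 6.02% of all contigs. In NM 3 were called higher at 12 hpt (20%, against 11.1%). At 24 hpt 3 were called higher in NM (20%, against 16.1%) and 1 lower (6.67%, against 5.01%). In AO 2 were called higher at each time (13.3%, against 9.84% at 12 hpt and 12.6% at 24 hpt). Between the organs at 12 hpt, 1 was called higher in AO (6.67%, against 2.95%). With 15 contigs, 1 call moves these shares by 6.67 percentage points. The list summed to 233.9 CPM in untreated AO, 218.2 in AO 12 hpt and 195 in AO 24 hpt (means of 2 libraries). In NM it summed to 220.5 CPM untreated, 210.6 at 12 hpt and 202 at 24 hpt, and in EP to 188.5, so its sum did not rise in NM. FOXJ1B, named for the zebrafish form of the factor that activates motile cilium genes, was at 6.47 CPM in untreated AO, 8.18 in AO 12 hpt, 7.45 in AO 24 hpt, 3.42 in untreated NM, 7.80 in NM 12 hpt, 7.37 in NM 24 hpt and 1.65 in EP (means of 2 libraries). It rose in NM by 1.18 (SE 0.182, FDR 0.00077) at 12 hpt and 1.10 (SE 0.18, FDR 0.00056) at 24 hpt, and its difference between the untreated organs was 0.91 (SE 0.181, FDR 0.0049), under the fold threshold. Another contig, annotated FOXJ1-B and outside the list, was looked at after the other values were seen. It was at 4.38 and 4.89 CPM in untreated AO, 0.701 and 0.548 in untreated NM, 5.08 and 4.87 in NM 12 hpt, 4.12 and 3.75 in NM 24 hpt and 0.283 and 0.521 in EP, and was called between the untreated organs (2.88, SE 0.24, FDR 4e-05) and in NM at 12 hpt (2.98, SE 0.243, FDR 1.1e-05) and 24 hpt (2.64, SE 0.247, FDR 1e-05). MCIDAS, which starts the programme of cells with many cilia, had a mean of 0.630 CPM in untreated AO and 2.30 in AO 12 hpt and was called there (1.84, SE 0.443, FDR 0.0086), and GMNC, which acts with it, had 0.624 in untreated NM and 2.5 in NM 12 hpt and was called there (1.99, SE 0.415, FDR 0.0046).

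Markers of the olfactory epithelium moved with the axoneme contigs in some comparisons and apart from them in others. The olfactory list (17 contigs, 16 tested) summed to 135.1 to 135.4 CPM in untreated AO, 206.9 to 211.1 in AO 12 hpt, 213.7 to 223.5 in AO 24 hpt, 64.0 to 68.7 in untreated NM, 173.7 to 175.0 in NM 12 hpt, 208.2 to 213.5 in NM 24 hpt and 122.5 to 144.4 in EP. Of the 16, 8 were called higher in untreated AO than in NM (50%, against 5.2% of all contigs), 9 in NM 12 hpt (56.2%, against 11.1%) and 6 in AO 12 hpt (37.5%, against 9.84%). In NM 24 hpt 9 were called higher (56.2%, against 16.1%) and 1 lower (6.25%, against 5.01%). Against EP the list went another way than the axoneme contigs in untreated NM, but not in untreated AO. Untreated NM had 0 higher and 7 lower by edgeR's test (43.8% lower, against 9.19% of all contigs), with a median of -1.02. Untreated AO had 5 higher (31.2%, against 7.46%) and 1 lower (6.25%, against 6.81%), mostly higher calls as for the axoneme contigs. The sums of the list in untreated AO overlapped those in EP. In AO 24 hpt 5 olfactory contigs were called higher (31.2%, against 12.6%) and 1 lower (6.25%, against 3.47%). Of the 127 axoneme contigs, 4 were called higher there (3.15%, against the same 12.6%). OMP, the olfactory marker protein of mature olfactory neurons, was at 20.3 and 22.0 CPM in untreated AO, 39.3 and 47.4 in AO 12 hpt and 23.5 and 27.4 in AO 24 hpt. In NM, the libraries stood at 0.841 and 2.08 CPM in untreated NM, 32.7 and 43.0 in NM 12 hpt and 16.0 and 14.9 in NM 24 hpt, and EP was at 0.992 and 0.130. CNGB1, a subunit of the olfactory transduction channel, had a contig without counts in untreated NM and in EP and with counts in the other 5 groups. The supporting cell list (20 tested contigs) summed to 1005 to 1008 CPM in untreated AO, 1303 to 1349 in AO 12 hpt and 1056 to 1059 in AO 24 hpt. It summed to 812.5 to 825.1 in untreated NM, 1114 to 1158 in NM 12 hpt and 1180 to 1183 in NM 24 hpt. In EP it summed to 875.9 to 925.3. Its sum was lowest in untreated NM, whereas the axoneme list summed lowest in EP (451.2 CPM, against 583.2 in untreated NM). Both sums were highest in AO 12 hpt. Of the supporting cell contigs, 4 were called higher in untreated AO than in NM (20%, against 5.2% of all contigs). In NM 5 were called higher at each time (25%, against 11.1% and 16.1%) and 1 lower (5%, against 1.32% and 5.01%). In AO 12 hpt 2 were called higher (10%, against 9.84%) and 2 lower (10%, against 2.21%). In AO 24 hpt 1 was called higher (5%, against 12.6%) and 4 lower (20%, against 3.47%). The proliferation list (31 tested contigs) had sums of 1968 to 1972 CPM in untreated AO, 1399 to 1474 in AO 12 hpt and 1231 to 1260 in AO 24 hpt. In NM its sums were 1986 to 2054 untreated, 1529 to 1587 at 12 hpt and 1150 to 1208 at 24 hpt. None of its contigs was called higher after treatment. In AO 2 were called lower at 12 hpt (6.45%, against 2.21% of all contigs) and 5 at 24 hpt (16.1%, against 3.47%). In NM none was called lower at 12 hpt (against 1.32%) and 2 at 24 hpt (6.45%, against 5.01%). The part of olfactory tissue, supporting cells or dividing cells in the axoneme values was not tested.

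Hair cell markers differed in course between the organs after treatment, with more lower than higher calls in AO and, at 24 hpt, mostly higher calls in NM. Their summed level was 429.2 to 458.0 CPM in untreated AO, 260.3 to 264.8 in AO 12 hpt, 182.2 to 182.6 in AO 24 hpt, 277.6 to 288.8 in untreated NM, 240.7 to 247.3 in NM 12 hpt, 289.6 to 304.9 in NM 24 hpt and 48.84 to 55.41 in EP. ATOH1, the factor that starts hair cell formation, was at 23.9 and 21.9 CPM in untreated AO, 11.3 and 12.0 in AO 12 hpt and 7.60 and 5.12 in AO 24 hpt. NM stood at 29.2 and 28.4 CPM in untreated NM, 12.9 and 15.2 in NM 12 hpt and 8.72 and 10.9 in NM 24 hpt, and EP was at 2.83 and 1.56 (contig DN99639_c0_g1). Of the 37 tested hair cell contigs, 3 were called higher (8.11%, against 9.84% of all contigs) and 5 lower (13.5%, against 2.21%) in AO 12 hpt. In AO 24 hpt 4 were called higher (10.8%, against 12.6%) and 15 lower (40.5%, against 3.47%). In NM 12 hpt 4 were called higher (10.8%, against 11.1%) and 2 lower (5.41%, against 1.32%). In NM 24 hpt 11 were called higher (29.7%, against 16.1%) and 1 lower (2.7%, against 5.01%). At 12 hpt ATOH1, 1 of the 37 hair cell contigs, lay below the untreated level in both organs. It was called in NM (-1.03, SE 0.181, FDR 0.0017) and just under the fold threshold in AO (-0.98, SE 0.182, FDR 0.0021). Of the axoneme contigs, 57 were called higher in NM at 12 hpt (44.9%, against 11.1% of all contigs). In AO 12 hpt 14 were called higher (11%, close to the 9.84% of all contigs). The summed hair cell list was higher in untreated AO than in untreated NM, as the axoneme contigs were. Only 2 of 37 contigs were called there (5.41%), close to the 5.2% of all contigs.

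**Figure D5:**
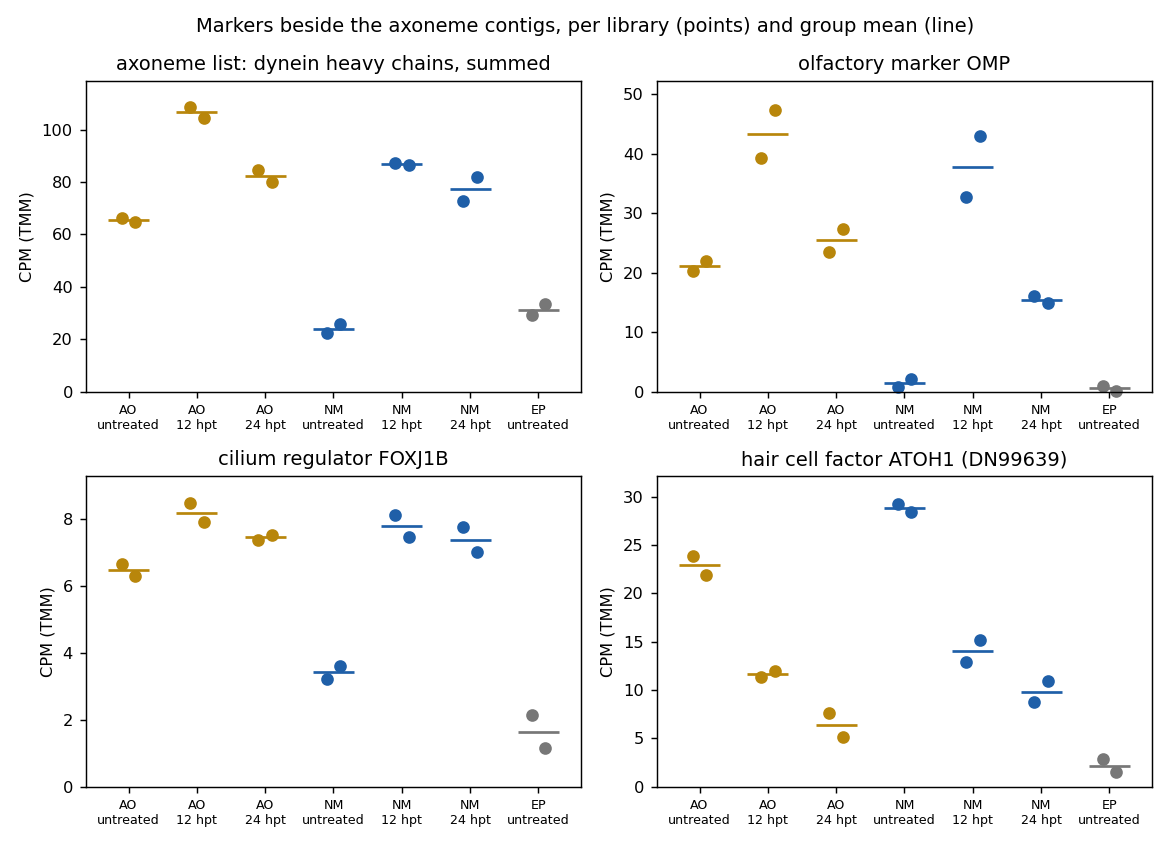
Level in CPM (y axis, from 0) per library (points) and group mean (line) of the summed dynein heavy chains, the olfactory marker OMP, FOXJ1B and ATOH1. Dynein heavy chains, OMP and FOXJ1B share the low value of untreated NM next to untreated AO and the rise in NM at 12 hpt, while ATOH1 is at 28.4 and 29.2 CPM in untreated NM and lower in every treated group. ATOH1 is 1 of 37 tested hair cell contigs, of which 11 were called higher and 1 lower in NM 24 hpt. FOXJ1B is 1 of 15 tested regulator contigs, of which 3 were called higher in NM 12 hpt and none between the untreated organs. The regulator list summed to 220.5 CPM in untreated NM and 210.6 in NM 12 hpt. OMP is 1 of 16 tested olfactory contigs, and that list, unlike OMP, summed to similar levels in EP (133.4 CPM) and untreated AO (135.2).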

How the data were processed

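RNA of 14 libraries, 2 for each of 7 groups, was sequenced paired-end by the authors, with base calling by CASAVA 1.8.2. Per the study's methods, reads were trimmed with Trimmomatic 0.38, all libraries were assembled together with Trinity, proteins were named from Swiss-Prot and sterlet sequences, and RSEM estimated counts per assembled gene. The deposited values are these expected counts, without normalization. Columns marked 0h hold the untreated groups. Contig lengths and sequences were not used here, so levels are not compared between genes and no sequence is printed.

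Expected counts were rounded to whole numbers. Of 23448 genes, 21978 passed edgeR's filterByExpr. Library totals were 7121038 to 10067958 counts and TMM factors 0.833 to 1.19. edgeR 4.0.16 (R 4.3.3, limma 3.58.1) fitted 7 group means to all libraries with its quasi-likelihood test, p-values were Benjamini-Hochberg adjusted over all tested genes, and calls needed an absolute log2 fold change above 1 and an FDR under 0.01. The authors used edgeR's exact test with the same limits. Exact permutation of 2 against 2 libraries cannot go below p = 0.333 and was not used.

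Replicate numbers are shared between groups. Deviations from group means of same-numbered libraries correlated at 0.125 to 0.232 (median 0.194) in 21 of 21 pairs of groups, so a fit with the replicate as a block was an alternative. The others were size factors of the RLE method, no filter on low counts, only the groups compared, the exact test, DESeq2 1.42.0 and leaving out each library. Named contigs are the 2 with the highest mean in each role, the 5 called contigs with the smallest FDR in each direction of each comparison, and further contigs of the same symbols. The members and lists were chosen with earlier results of these data known. A result from the list of other axoneme genes is not reported here.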

Additional observations from a re-analysis of the deposited data

Results flagged for a closer look

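The response to neomycin differed between the organs, by the test of the difference itself, in 29 cases, all with the AO change below the NM change. These are 6 members at 12 hpt (4.72%, against 1.79% of all contigs) and 23 at 24 hpt (18.1%, against 7.68%), some counted at both times. Most calls among all contigs were also lower (1.39% against 0.405% higher, and 5.61% against 2.07%). The counts fell by DESeq2 and with only the groups compared, as given below. Values are the AO change minus the NM change on the log2 scale, as fitted by edgeR, and FDR is the Benjamini-Hochberg adjusted p. All share the untreated AO and untreated NM libraries, so they are not independent of each other.

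At 12 hpt the difference was -1.24 for RSPH1 (SE 0.138, FDR 0.00086), -3.99 for CROCC DN101052_c0_g1, -2.20 for DNAH7 DN114041_c0_g1, -1.73 for TEKT1, -1.62 for TEKT4 and -1.41 for DNAI2 (SE 0.256, FDR 0.0099). CROCC rests on untreated NM libraries at 0.140 and 0.110 CPM.

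At 24 hpt the same test gave -1.64 for RSPH1 (SE 0.143, FDR 5.4e-05), -2.34 for TEKT1, -1.26 for TEKT2, -1.73 for TEKT4, -1.01 for RSPH3, -3.55 for CROCC DN101052_c0_g1 and -1.88 for EFCAB6 DN114293_c0_g1. Among dynein heavy chains it was -2.47 for DNAH7 DN114041_c0_g1, -2.15 for DNAH8 DN118386_c0_g1, -2.19 for DNAH5 DN118386_c0_g2, -2.72 for DNAH9 DN114147_c0_g1, -2.47 for DNAH3 DN119689_c1_g1, and -2.15 and -2.31 for DNAH10 DN118906_c2_g1 and DN118906_c2_g2. The contigs named DNAH8 and DNAH5 share an assembly component, as do both of DNAH10. DNAI2 stood at -1.20 and the assembly factor DNAAF2 at -1.42. Among CFAP contigs it was -1.93 for CFAP206, -2.37 for CFAP74, -1.94 for CFAP45, -2.03 for CFAP77, -1.26 for CFAP20 DN86058_c3_g1, -1.88 for CFAP99 and -1.62 for CFAP57 (SE 0.358, FDR 0.0099). Groups of 2 libraries were not screened for single libraries that stand apart.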

How the results depend on the processing

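No named contig that was called changed direction under any alternative run. The alternative runs use the same libraries as the calls, so a change of direction was unlikely from the start. Of 103 such calls, 33 no longer passed by DESeq2. When the fit held only the groups compared, 51 were kept and 51 no longer passed. Shares of all contigs called in the alternative fits are not given beside the counts below. With only the groups compared in the fit, members called were 8 between untreated NM and EP, 0 between untreated AO and NM (81 at an unadjusted p under 0.05 by edgeR's quasi-likelihood test), 5 and 1 in AO at 12 hpt and 24 hpt, 16 in NM at 12 hpt and 28 at 24 hpt, and 0 and 8 for the organ difference in the response at 12 hpt and 24 hpt. DESeq2 called 45 between untreated AO and EP, 12 between untreated NM and EP, 18 between untreated AO and NM, 4 and 2 in AO, 34 and 30 in NM, and 0 and 6 for the organ difference. The exact test called 1 between the organs at 12 hpt. RLE size factors, no filter and the replicate block left every count within 1.5 times. With the replicate block, 71 members were called between untreated AO and EP, 26 between untreated NM and EP, 47 between untreated AO and NM, 15 and 4 in AO, 61 and 48 in NM, and 9 and 27 for the organ difference.

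Leaving out each library gave 53 to 68 calls between untreated AO and EP, 11 to 21 between untreated NM and EP, 16 to 39 between untreated AO and NM, 0 to 1 between the organs at 12 hpt and 0 at 24 hpt, 2 to 13 and 1 to 5 in AO, 31 to 54 and 28 to 48 in NM, and 1 to 5 and 8 to 22 for the organ difference. Where this left a group with 1 library, that library was assumed to vary like those of the other groups. Low counts limit most members, and groups of 2 libraries from 1 pool carry no spread between larvae.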
